A study of Homo sapiens with 58 samples.

Results

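The regulatory elements (REs) around 37 genes for matrix-cleaving enzymes and their inhibitors were examined: 19 ADAMTS proteases, 3 ADAMTS-like genes, 11 matrix metalloproteinases (MMPs) and the 4 tissue inhibitors of metalloproteinases (TIMPs). An RE is a stretch of open chromatin, and it was assigned to one of these genes if its midpoint lay inside the gene or within 50 kb of a start site annotated in GENCODE release 44 (hg38), with the nearest start site deciding between neighbours. This gave 614 REs of the 151457 in the count table. For 464 of the 614, the nearest start site of any protein-coding gene belonged to one of the 37, and for the others another protein-coding gene starts nearer. ADAMTSL1 had the most REs (67), followed by ADAMTS17 (41), ADAMTS2 (37) and ADAMTS12 (28), while MMP13 and TIMP4 had 5 each.

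Accessibility was measured by ATAC-seq, in which a transposase inserts adapters into open DNA, in cranial neural crest cells (CNCCs) derived in culture from the established human embryonic stem cell line H9. In SOX9-tagged cells both copies of SOX9 encode a protein fused to FKBP12-F36V, mNeonGreen and V5, so that adding dTAGV-1 degrades SOX9; these came from 2 edited clones, S9CC13 and S9CC47, and WT H9 cells without the tag served as controls for the compound. SOX9-tagged CNCCs were exposed for 48 h to 0, 0.5, 1.6, 5, 16 or 500 nM dTAGV-1 (7 replicates each, from 6 differentiation batches), which the labels equate with SOX9 levels of 100, 77.9, 51.7, 25.8, 8.14 and 0.95%, and WT CNCCs to 0 or 500 nM (2 replicates each). A separate time course held SOX9-tagged cells, labelled as clone S9CC13, and WT cells after vehicle for 24 h, or 500 nM for 3 h or 24 h (2 replicates each), for 58 samples in all.

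The tagged clones share the edited allele in every arm, so differences between tagged and WT cells also include the editing itself. Each sample held 22905782 to 81040023 counts in REs. Promoter REs of 8 of 8 neural crest genes, among them TWIST1, SNAI2 and NR2F1, were open at 32.5 to 87.9 CPM (counts in an RE scaled to the size of the library, TMM-normalised by edgeR) with no dTAGV-1, against a median of 2.51 CPM over all REs. Most of the REs behind that median (117107) are not promoter REs. POU5F1, a stem cell gene, was at 1.28 CPM. SOX10, placed here among the Schwann cell genes and not among the 8, was at 1.64 CPM. Of the melanocyte genes MITF and PMEL were at 24.6 and 105 CPM, of the neural progenitor genes PAX6 and SOX1 at 18.1 and 2.17 CPM, and the stem cell gene DPPA4 was at 12.4 CPM; NANOG and TYR had no promoter RE. An open promoter does not show expression, and whether such cells had a part in any result was not tested. In replicate S9CC13_R14, the 0 and 0.5 nM samples carry each other's concentration label, against the sample titles and the SOX9 levels; the titles were followed, and counts without this replicate are given below. The time-course columns of SOX9-tagged replicate R5 carry the name of clone S9CC47 although the titles and genotype labels give S9CC13, so the clone of that replicate is uncertain. Among the SOX9-tagged replicates of the 48 h series only S9CC13_R6 and S9CC47_R6 share a differentiation batch. The p-values measure the spread between differentiations of these clones, or of WT cells, all from the line H9.

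ADAMTS proteases are secreted enzymes that trim procollagens and cut proteoglycans such as aggrecan and versican, MMPs break down collagens and other matrix proteins, and TIMPs block the active site of both families. Neural crest cells remodel matrix as they migrate, and SOX9 is best known as the activator of cartilage matrix genes, whose products several of these enzymes cleave. SOX proteins bind the minor groove at short cores such as AACAAT and ACAAAG, and a pair of SOX9 molecules can bind 2 cores that face each other a few bases apart. Changes in accessibility are described here without a claim on which gene an RE controls; in bulk samples, fewer cells with an open RE and a less open RE in each cell cannot be told apart.

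Sequences of REs that carry the results are shown first, each as the 300 bases around the midpoint on the plus strand of hg38. REs are named by gene and signed distance in kb from the nearest annotated start site of that gene, with positive values downstream. In the first 6, capitals mark AACAAT and ACAAAG on either strand and the arms of a facing pair (ACAAT or ACAAA, then 3 to 5 bases, then ATTGT or TTTGT); in the last they mark the AP-1 motif TGANTCA. ADAMTSL1 -205.5 kb (chr9:18268439-18268738, intron of ADAMTSL1, 362.0 kb from the outermost start of the gene) had the largest decrease of all 614 REs. ADAMTS15 +39.3 kb (chr11:130487838-130488137, intergenic), ADAMTS2 -54.2 kb (chr5:179176860-179177159, intron of ADAMTS2) and ADAMTS12 +10.7 kb (chr5:33829508-33829807, intron of ADAMTS12) are 3 of the 10 REs with the largest decreases. ADAMTSL1 -32.6 kb (chr9:18760510-18760809, intron of ADAMTSL1) and ADAMTS14 -7.5 kb (chr10:70664861-70665160, intron of PALD1) each hold a facing pair, and of these the ADAMTSL1 RE fell at 500 nM. MMP13 -40.7 kb (chr11:102996288-102996587, intergenic) was among the 6 REs with the largest increases, and was picked for display after its values and its AP-1 motif were seen.
ADAMTSL1 -205.5 kb: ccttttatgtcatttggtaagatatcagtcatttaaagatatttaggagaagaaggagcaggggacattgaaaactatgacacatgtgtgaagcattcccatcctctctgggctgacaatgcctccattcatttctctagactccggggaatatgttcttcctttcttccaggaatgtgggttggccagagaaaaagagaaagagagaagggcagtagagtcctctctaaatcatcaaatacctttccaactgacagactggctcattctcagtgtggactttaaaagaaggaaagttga
ADAMTS15 +39.3 kb: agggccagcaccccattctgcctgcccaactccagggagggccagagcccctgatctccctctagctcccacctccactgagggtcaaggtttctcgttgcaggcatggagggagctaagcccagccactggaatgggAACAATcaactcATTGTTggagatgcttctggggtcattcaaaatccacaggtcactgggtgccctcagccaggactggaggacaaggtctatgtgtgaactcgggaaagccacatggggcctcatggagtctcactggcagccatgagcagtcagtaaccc
ADAMTS2 -54.2 kb: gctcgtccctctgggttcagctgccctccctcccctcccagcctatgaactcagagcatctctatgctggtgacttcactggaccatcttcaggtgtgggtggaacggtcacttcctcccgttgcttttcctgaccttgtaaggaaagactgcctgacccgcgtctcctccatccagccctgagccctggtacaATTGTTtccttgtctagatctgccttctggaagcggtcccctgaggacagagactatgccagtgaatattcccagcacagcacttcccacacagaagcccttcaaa
ADAMTS12 +10.7 kb: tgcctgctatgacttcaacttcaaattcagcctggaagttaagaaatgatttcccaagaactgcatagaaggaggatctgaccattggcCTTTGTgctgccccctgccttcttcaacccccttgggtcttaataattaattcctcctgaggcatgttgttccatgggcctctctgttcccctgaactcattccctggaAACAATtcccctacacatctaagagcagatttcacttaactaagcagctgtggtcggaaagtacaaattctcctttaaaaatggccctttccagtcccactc
ADAMTSL1 -32.6 kb: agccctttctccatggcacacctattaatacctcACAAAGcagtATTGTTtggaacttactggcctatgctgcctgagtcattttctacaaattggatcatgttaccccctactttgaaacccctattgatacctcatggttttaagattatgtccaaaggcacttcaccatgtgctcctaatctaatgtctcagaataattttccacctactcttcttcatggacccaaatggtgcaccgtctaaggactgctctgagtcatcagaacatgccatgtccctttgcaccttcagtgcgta
ADAMTS14 -7.5 kb: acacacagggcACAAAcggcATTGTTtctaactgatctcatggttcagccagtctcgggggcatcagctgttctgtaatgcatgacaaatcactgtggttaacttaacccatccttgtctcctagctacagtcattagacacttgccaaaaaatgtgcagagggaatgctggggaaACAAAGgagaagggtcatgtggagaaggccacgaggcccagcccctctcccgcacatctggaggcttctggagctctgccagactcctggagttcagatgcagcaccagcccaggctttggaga
MMP13 -40.7 kb: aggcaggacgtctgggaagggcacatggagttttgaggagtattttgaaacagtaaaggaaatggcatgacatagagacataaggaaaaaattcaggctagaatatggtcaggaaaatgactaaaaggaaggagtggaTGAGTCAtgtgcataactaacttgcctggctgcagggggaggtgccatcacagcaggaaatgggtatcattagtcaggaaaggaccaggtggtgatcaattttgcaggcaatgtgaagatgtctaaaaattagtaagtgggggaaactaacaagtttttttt

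The window of ADAMTSL1 -205.5 kb held neither core, while that of ADAMTS15 +39.3 kb held AACAAT and its reverse complement facing each other 6 bases apart, just outside the spacing searched. ADAMTS2 -54.2 kb held 1 AACAAT core, and ADAMTS12 +10.7 kb held 1 core of each kind. Over the 10 REs with the largest decreases, 5 windows held a core and 5 held none, so REs with a core are over-represented among the decreases shown.

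Full depletion of SOX9 asked which of these REs depend on it. After 48 h at 500 nM, 90 of the 614 REs (14.7%) fell and 57 (9.28%) rose in SOX9-tagged CNCCs (edgeR quasi-likelihood test, adjusted p under 0.05, 7 against 7). Over all REs 13.9% fell and 10.2% rose, so the shares near these genes were close to those elsewhere. The median log2 change over the 614 was 0.03, against 0.02 over all REs. A decrease of more than 1 log2 was found in 21 of the 614 (3.42%) and an increase of that size in 5 (0.814%), next to 3.88% and 0.609% of all REs. Leaving out replicate S9CC13_R14 gave 74 REs that fell and 55 that rose, against 12.2% and 9.01% of all REs.

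At least 1 RE fell near 26 of the 37 genes and at least 1 rose near 22, with both directions near 15 genes. No RE was called near 4 genes, namely ADAMTS1, MMP11, MMP24 and TIMP4. Of 153 REs within 1 kb of any start site 15 fell and 7 rose (14.4% called), and of the other 461 REs 75 fell and 50 rose (27.1%), and the shares over the whole table were 14.6% and 26.9%.

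**Figure D1:**
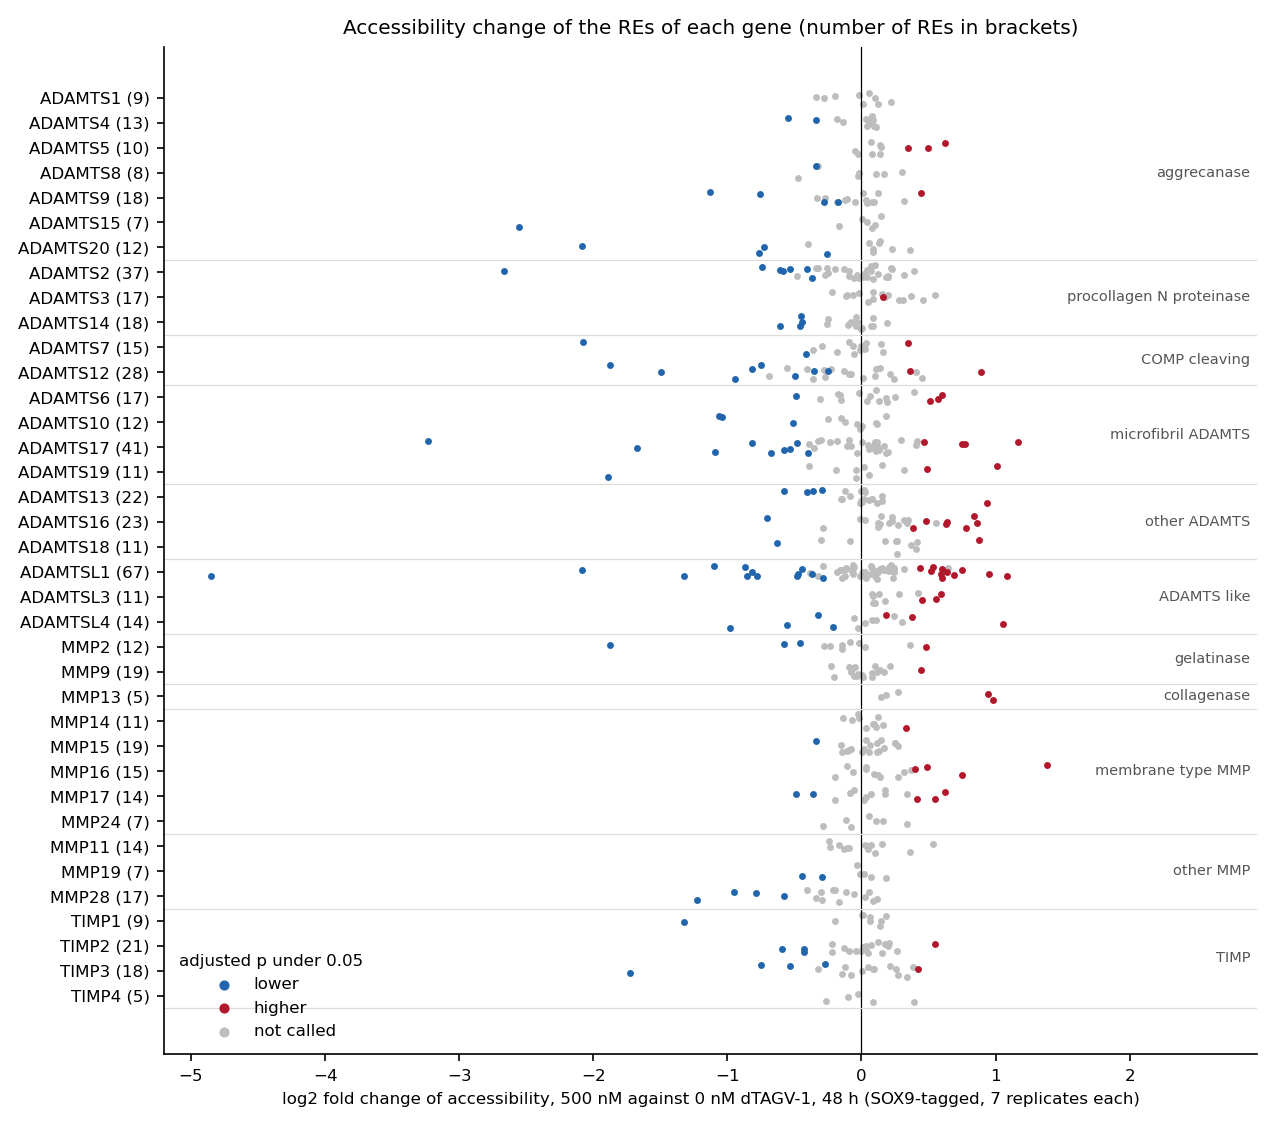
Log2 fold change of accessibility (x axis) of each of the 614 REs by gene (y axis, number of REs in brackets, genes ordered by role), SOX9-tagged CNCCs at 500 nM against 0 nM dTAGV-1 for 48 h, 7 replicates each; blue and red points passed the edgeR test at adjusted p under 0.05 and fell or rose, grey points did not. The lowest point is the ADAMTSL1 RE at -4.85 and the highest the MMP16 RE at 1.39; 15 genes hold called REs in both directions.

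Among the aggrecanases and their relatives, which cut aggrecan and versican, 12 of 77 REs fell and 4 rose. ADAMTS15 +39.3 kb, the RE with the facing AACAAT cores shown above, ranged over 1.39 to 2.98 CPM (median 2.27) in the 7 samples without dTAGV-1 and 0.262 to 0.580 CPM (median 0.348) at 500 nM. The groups did not overlap, and the log2 change was -2.55 (SE 0.19, adjusted p 1.88e-10). The other 6 REs of ADAMTS15 were not called. ADAMTS20 +32.7 kb, in an intron of the versican-cleaving ADAMTS20, went from a range of 2.18 to 7.59 CPM (median 2.66) to a range of 0.500 to 1.36 CPM (median 0.790), again without overlap (log2 change -2.08, SE 0.22, adjusted p 9.90e-08), and 4 of the 12 REs of that gene fell. ADAMTS9, which also cuts versican, had 4 of 18 REs that fell and 1 that rose. ADAMTS4 had 2 of 13 and ADAMTS8 had 1 of 8 that fell, with none that rose. ADAMTS5, the main aggrecan-degrading enzyme of mouse cartilage, had 3 of 10 higher and none lower; the largest increase, at ADAMTS5 +19.4 kb, was 0.62 (SE 0.17, adjusted p 0.00807), in 6 of 7 replicates. ADAMTS1 had 9 REs, none called, with log2 changes of -0.34 to 0.22.

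Of the REs near the procollagen N-proteinases, which remove the amino-terminal propeptide of fibrillar collagens, 11 of 72 fell and 1 rose. ADAMTS2 had 7 of 37 that fell and none that rose. ADAMTS2 -54.2 kb, in an intron 168.5 kb from the outermost start, was at 1.37 to 4.12 CPM (median 2.66) without dTAGV-1 and at 0.0616 to 0.942 CPM (median 0.364) at 500 nM. All 7 samples at 500 nM lay below all 7 without dTAGV-1, and the log2 change was -2.67 (SE 0.22, adjusted p 8.71e-10). ADAMTS14 had 4 of 18 that fell, the lowest log2 change being -0.60. Of the 17 REs of ADAMTS3, 1 was called, and this was its promoter, which rose.

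The proteases ADAMTS7 and ADAMTS12, which cut the cartilage oligomeric matrix protein (COMP), had 10 of 43 REs that fell and 3 that rose. ADAMTS12 held 8 of the decreases among its 28 REs. ADAMTS12 +10.7 kb had the highest median without dTAGV-1 of the 10 REs with the largest decreases: it was at 18.0 to 42.4 CPM (median 36.4) without dTAGV-1 and at 5.82 to 14.5 CPM (median 8.10) at 500 nM. The groups did not overlap, and the log2 change was -1.87 (SE 0.09, adjusted p 7.67e-14). In the same gene ADAMTS12 -66.6 kb rose by 0.89 (SE 0.13, adjusted p 1.28e-05). ADAMTS7 -4.6 kb, intronic, went from a range of 1.37 to 4.49 CPM (median 2.22) to a range of 0.404 to 1.05 CPM (median 0.495) (log2 change -2.08, SE 0.23, adjusted p 1.15e-07), and 2 of the 15 REs of ADAMTS7 fell.

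ADAMTS6, ADAMTS10, ADAMTS17 and ADAMTS19, grouped here for ties to fibrillin microfibrils or close relation to enzymes with such ties, had 14 of 81 REs that fell and 9 that rose. ADAMTS17 held 9 decreases and 4 increases among 41 REs. ADAMTS17 +37.0 kb (chr15:100224106-100224968, intron) was at 8.64 to 19.8 CPM (median 17.9) without dTAGV-1 and at 0.991 to 2.59 CPM (median 1.48) at 500 nM. The groups were far apart, with a log2 change of -3.23 (SE 0.14, adjusted p 4.83e-15). In the same gene ADAMTS17 +12.6 kb rose, from a range of 0.409 to 1.29 CPM (median 0.683) to a range of 0.807 to 2.57 CPM (median 1.59). Here the groups overlapped (log2 change 1.17, SE 0.18, adjusted p 1.52e-05). A gain in each of the 7 replicates was a condition for naming it among the largest increases. ADAMTS19 also held both directions, in intergenic REs upstream of its start. ADAMTS19 -37.1 kb went from a range of 1.42 to 3.09 CPM (median 1.50) to a range of 0.339 to 0.632 CPM (median 0.613) (log2 change -1.89, SE 0.19, adjusted p 3.86e-08). ADAMTS19 -17.8 kb went from a range of 1.87 to 3.70 CPM (median 2.89) to a range of 3.85 to 8.41 CPM (median 5.95) (log2 change 1.01, SE 0.12, adjusted p 4.42e-07). In neither did the groups overlap. ADAMTS10 had 3 of 12 lower and none higher, and ADAMTS6 had 1 of 17 lower and 3 higher.

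For the remaining ADAMTS genes, ADAMTS13, ADAMTS16 and ADAMTS18, 6 of 56 REs fell and 9 rose. ADAMTS16 accounted for 7 of the increases among its 23 REs, the largest being ADAMTS16 +46.6 kb at 0.86 (SE 0.17, adjusted p 3.03e-04). ADAMTS13, which cleaves von Willebrand factor, had 4 of 22 lower and 1 higher, but for all except 5 of the 22 another protein-coding gene starts nearer. ADAMTS18 had 1 of 11 in each direction, ADAMTS18 -9.4 kb at -0.63 (adjusted p 1.45e-04) and ADAMTS18 +3.2 kb at 0.88 (adjusted p 7.52e-04).

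The ADAMTS-like proteins share the ancillary domains of ADAMTS enzymes and lack the protease domain. Of their 92 REs 17 fell and 17 rose, with 13 decreases and 11 increases among the 67 REs of ADAMTSL1 alone. ADAMTSL1 -205.5 kb was at 5.15 to 13.1 CPM (median 8.46) without dTAGV-1 and at 0.126 to 0.565 CPM (median 0.242) at 500 nM. The lowest sample without dTAGV-1 was far above the highest at 500 nM, and the log2 change was -4.85 (SE 0.19, adjusted p 9.88e-16). ADAMTSL1 +20.5 kb (chr9:18494295-18495136, intron) fell by 2.09 in log2 units (SE 0.10, with adjusted p 6.42e-14). The nearby ADAMTSL1 -1.0 kb (chr9:18472825-18473325, intron) rose, from a range of 1.31 to 2.88 CPM (median 2.07) to a range of 2.33 to 7.02 CPM (median 4.11), with overlap (log2 change 1.09, SE 0.14, adjusted p 2.46e-06). ADAMTSL4 held 4 decreases and 3 increases among 14 REs; ADAMTSL4 +46.5 kb rose by 1.05 (SE 0.12, adjusted p 3.03e-07) but lies in an intron of ENSA, whose start site is nearer. ADAMTSL3 had 3 of 11 higher and none lower.

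The gelatinase genes MMP2 and MMP9, whose products degrade denatured and basement membrane collagen, had 3 of 31 REs that fell and 2 that rose. MMP2 had 3 of 12 that fell and 1 that rose. MMP2 -2.3 kb (chr16:55502782-55503282, over a coding exon and upstream of an internal start site) was at 15.9 to 30.0 CPM (median 19.7) without dTAGV-1 and at 3.39 to 8.98 CPM (median 5.43) at 500 nM. The groups did not overlap, and the log2 change was -1.87 (SE 0.09, adjusted p 7.32e-14). MMP9 had 19 REs, of which none fell and 1 rose, and for 5 of the 19 the nearest protein-coding start is that of MMP9. The collagenase gene MMP13, active in cartilage turnover, had 5 REs, of which 2 rose and none fell. MMP13 -40.7 kb, whose AP-1 motif is shown above, was at 0.712 to 1.50 CPM (median 0.864) without dTAGV-1 and at 1.12 to 3.70 CPM (median 1.85) at 500 nM. The groups overlapped (log2 change 0.98, SE 0.17, adjusted p 9.28e-05), and a gain in each of the 7 replicates was a condition for naming this RE.

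The membrane-anchored MMPs had 3 of 66 REs that fell and 8 that rose. MMP16 held 4 increases and no decrease among 15 REs, with MMP16 +209.7 kb at 0.263 to 0.971 CPM (median 0.628) without dTAGV-1 and at 1.18 to 2.17 CPM (median 1.55) at 500 nM, without overlap (log2 change 1.39, SE 0.21, adjusted p 1.50e-05). MMP17 had 2 of 14 lower and 3 higher, MMP15 had 1 of 19 lower, and MMP14, the activator of MMP2 at the cell surface, had 1 of 11 higher. The MMP14 RE that rose lies over a coding exon of REM2, whose start site is nearer. For 3 of the 11 MMP14 REs the nearest protein-coding start is that of MMP14. MMP24 had 7 REs, none called. Of the other MMPs, MMP28 had 4 of 17 REs that fell, led by MMP28 +2.5 kb at -1.22 (SE 0.11, adjusted p 2.61e-09), MMP19 had 2 of 7 that fell, and none of the 38 REs of MMP11, MMP19 and MMP28 rose.

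The TIMP genes had 8 of 53 REs that fell and 2 that rose. TIMP3, the inhibitor that stays bound to matrix and blocks ADAMTS4 and ADAMTS5, had 4 of 18 that fell. TIMP3 +58.3 kb, over its untranslated exon and with the start site of SYN3 nearer, went from a range of 2.07 to 7.33 CPM (median 3.17) without dTAGV-1 to a range of 0.457 to 1.53 CPM (median 1.34) at 500 nM, without overlap (log2 change -1.72, SE 0.16, adjusted p 1.01e-08). TIMP1 +28.8 kb lies in an intron of the surrounding gene SYN1, whose start site is nearer. It fell by 1.32 in log2 units (SE 0.22, with adjusted p 7.31e-05) from a median of 0.898 CPM. For 1 of the 9 TIMP1 REs the nearest protein-coding start is that of TIMP1. TIMP2 had 3 of 21 lower and 1 higher. The REs of TIMP1, TIMP3, MMP28, ADAMTS5, ADAMTS16 and ADAMTS18 and the increase of ADAMTS12 named here were picked after their values were seen, as the called RE with the largest change of its gene in that direction.

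A promoter RE of the gene's own start site was present for 34 of the 37 genes; taking for each gene the one with the most counts, 2 fell, 2 rose and 30 were not called after 48 h at 500 nM. Of further REs within 1 kb of their gene's start, ADAMTS12 +1.0 kb, ADAMTSL1 +0.8 kb and ADAMTSL4 -0.2 kb fell (log2 changes -0.35, -0.28 and -0.33, adjusted p 0.0157, 0.0103 and 0.0163); these 3 were named after their values were seen. The TIMP3 promoter, TIMP3 -0.1 kb (chr22:32801404-32801904), was at 6.72 to 19.8 CPM (median 11.2) without dTAGV-1 and at 11.3 to 26.1 CPM (median 14.9) at 500 nM. The groups overlapped and 7 of 7 replicates gained (log2 change 0.42, SE 0.09, adjusted p 8.43e-04). In WT cells the log2 change of this promoter was 0.20, and the edgeR test of the genotype difference did not call it (adjusted p 0.655). The ADAMTS3 promoter, ADAMTS3 -0.1 kb (chr4:72568798-72569831), rose by 0.16 (SE 0.05, adjusted p 0.0215) in 6 of 7 replicates. The promoter REs ADAMTS12 -0.3 kb and ADAMTS9 +0.3 kb fell by 0.25 (SE 0.08, adjusted p 0.0189) and 0.18 (SE 0.06, adjusted p 0.0231) on the log2 scale. The calls at ADAMTS3, ADAMTS12 and ADAMTS9 were each lost in at least 1 fit with a replicate left out, and that at ADAMTS9 also with DESeq2. Among genes with one of the 10 largest decreases, the promoter with the most counts fell at ADAMTS12, as given above, and was not called at the other 8 genes, with log2 changes from -0.12 at ADAMTSL1 to 0.11 at ADAMTS17.

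The titration asked at which SOX9 level these REs respond. At 16 nM (8.14% SOX9) 59 of the 614 REs fell and 48 rose, against 9.1% and 7.11% of all REs. At 5 nM (25.8% SOX9) 24 fell and 6 rose, against 4.23% and 1.08% of all REs, the decreases being spread over 14 genes with 6 near ADAMTSL1 and 3 each near ADAMTS12 and ADAMTS17. At 1.6 nM (51.7% SOX9) none of the 614 was called by edgeR, where 0.0383% of all REs were. An unadjusted edgeR p under 0.05 was found in 33 of the 614 and in 7792 of all 151457 REs. DESeq2 called 1 of the 614 and 0.236% of all REs. At 0.5 nM none was called by edgeR or DESeq2, and the share over all REs was 0.0%. There 24 of the 614, and 5197 of all 151457 REs, had an unadjusted edgeR p under 0.05. With the replicate as a block, since samples of a replicate share clone and differentiation, the counts became 96 lower and 81 higher at 16 nM (177 in all), 34 lower and 15 higher at 5 nM (49 in all), and 5 at 1.6 nM; of all REs that fit called 26.0%, 8.53% and 1.04% at these doses. Leaving out replicate S9CC47_R6 raised the count at 5 nM to 67 and that at 1.6 nM to 4 (11.4% and 0.644% of all REs). Leaving out S9CC13_R6 gave 2 at 1.6 nM and 7 at 0.5 nM (0.311% and 0.659% of all REs). S9CC47_R6 and S9CC13_R6 are the only replicates of this series that share a batch. Without either, each batch holds 1 replicate, so the batch term equals the replicate block above. Whether the counts rose for that reason was not tested. Leaving out S9CC13_R14 gave 102, 27, 0 and 0 at 16, 5, 1.6 and 0.5 nM. The shares over all REs were then 15.5%, 4.64%, 0.0224% and 0%.

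Of the 90 REs that fell at 500 nM, 53 were also lower at 16 nM and 24 at 5 nM, and of the 57 that rose 33 were higher at 16 nM and 5 at 5 nM; all doses share the 0 nM samples. The shares of the REs that fell were 58.9% and 26.7%, against 58.7% and 30.1% over the whole table, and those of the REs that rose 57.9% and 8.77%, against 52.1% and 9.54%. The 10 REs with the largest decreases were all past the threshold at 5 nM. ADAMTS2 -54.2 kb had the largest change of them there, -1.52 on the log2 scale (adjusted p 3.67e-06), close to that of ADAMTS17 +37.0 kb at -1.50 (adjusted p 6.98e-07). ADAMTSL1 -205.5 kb, first by its change at 500 nM, stood at -0.94 at 5 nM (adjusted p 1.42e-05) and at -2.69 at 16 nM (adjusted p 1.66e-08). Of the 6 REs with the largest increases, ADAMTS19 -17.8 kb was called at 5 nM (0.64, adjusted p 0.00131) and the other 5 were not; MMP13 -40.7 kb was not called at 16 nM either (0.28, adjusted p 0.296).

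**Figure D2:**
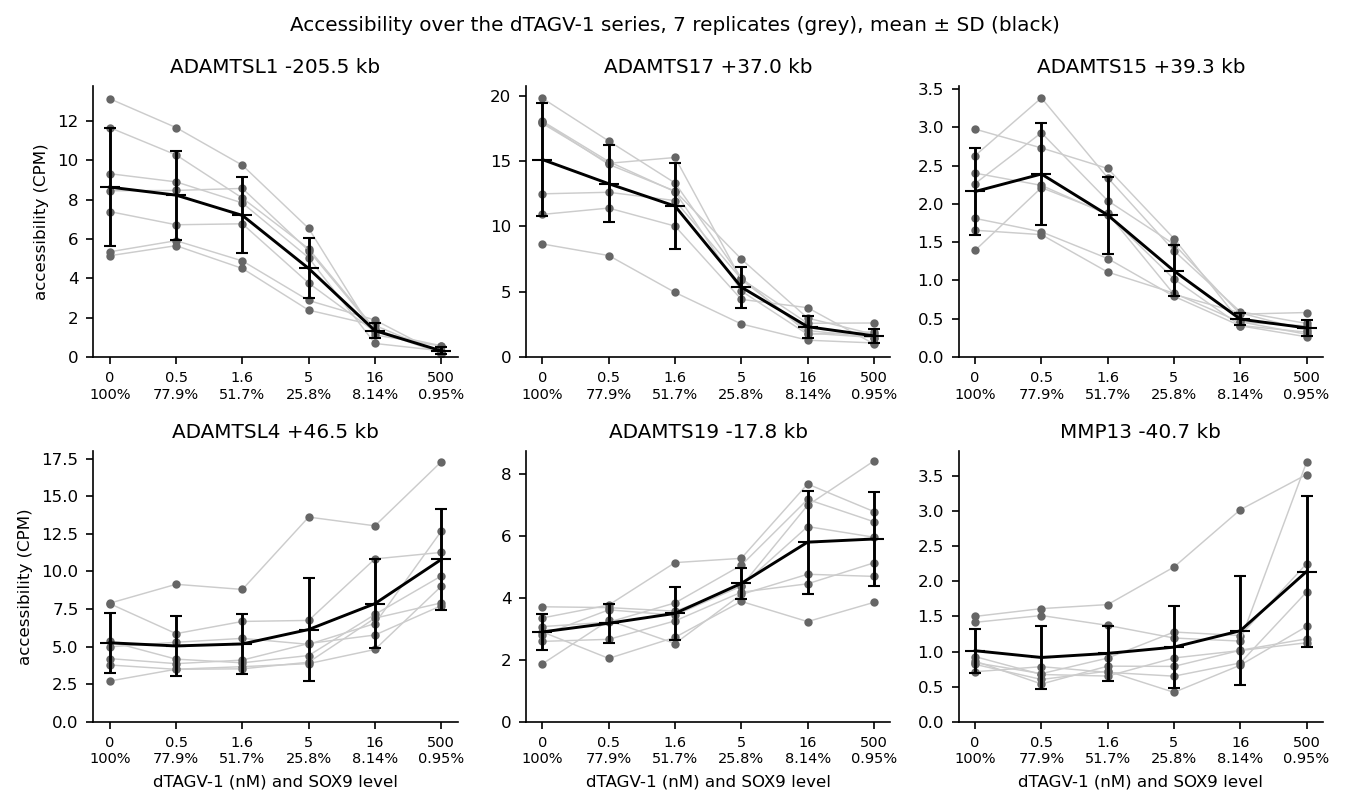
Accessibility in CPM (y axis) of 6 REs in SOX9-tagged CNCCs after 48 h over the 6 dTAGV-1 concentrations (x axis, nM, with the SOX9 level in %); grey points joined by lines are the 7 replicates and black is their mean with SD. The 3 upper REs lose accessibility mainly between 1.6 and 16 nM, and the 3 lower ones gain it, the MMP13 RE passing the test at 500 nM and not at 16 nM.

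To place each response on the SOX9 scale, a Hill curve was fitted to the CPM values of the 147 called REs. Its ends were held at the 0 and 500 nM means, and its ED50 is the SOX9 level at the midpoint of the change. A higher ED50 means that the midpoint is reached after a smaller loss of SOX9. The steepness of the curves is not given here. The median ED50 of the 147 was 20.8%, against 18.4% over the 36522 REs called in the whole table, and 35 of the 147 had an ED50 of 30% or more (23.8%, against 26.0%). ADAMTS2 -54.2 kb was at 42.6% (39.6 to 45.9%), with the range over fits with a replicate left out, ADAMTS7 -4.6 kb at 37.7% (35.0 to 39.6%) and ADAMTS17 +37.0 kb at 35.9% (35.0 to 36.8%). ADAMTSL1 -205.5 kb at 24.8% (23.6 to 26.0%), ADAMTSL1 +20.5 kb at 24.2% (23.0 to 26.0%) and ADAMTS12 +10.7 kb at 23.0% (21.3 to 24.8%) lay lower, and their ranges did not overlap with those of the first 3. Among the REs that rose, ADAMTS19 -17.8 kb was at 27.3% (25.4 to 33.3%), ADAMTSL4 +46.5 kb at 7.95% (7.38 to 8.99%) and MMP13 -40.7 kb at 5.49% (5.22 to 7.38%). The ranges cover the choice of replicates and no other source of error. The values depend on the scale of the fit: on log2 CPM the ED50 of each of the 10 REs with the largest decreases was lower by a factor of 1.41 to 2.62. ADAMTSL1 -205.5 kb then had 9.45%, ADAMTSL1 +20.5 kb 15.1% and ADAMTS12 +10.7 kb 14.4%, while ADAMTS2 -54.2 kb had 26.0%, ADAMTS7 -4.6 kb 24.8% and ADAMTS17 +37.0 kb 22.4%.

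The time course asked which changes come soon after degradation. After 3 h at 500 nM 44 of the 614 REs had fallen and 6 had risen in SOX9-tagged CNCCs (2 against 2), against 7.42% and 0.91% of all REs. After 24 h 61 had fallen and 34 had risen, against 9.93% and 4.67%. DESeq2 gave 32 lower and 1 higher at 3 h, and 45 lower and 13 higher at 24 h. Of all REs it called 5.32% lower and 0.306% higher at 3 h, and 7% and 1.77% at 24 h. Without replicate S9CC13_R4 the count at 3 h was 20 and without S9CC13_R5 it was 32, with 30 and 59 at 24 h. Of these, the higher calls were 0 and 2 at 3 h and 1 and 9 at 24 h, next to 6 and 34 with both replicates; these fits leave a lone sample per arm that is assumed to vary like the WT groups. Of the 44 REs that fell at 3 h, 42 were also lower at 24 h (95.5%, against 87.5% of the REs that fell at 3 h in the whole table). The 3 h and 24 h tests share the same 2 vehicle samples and 1 fit. In the separate 48 h samples 38 of the 44 were lower (86.4%, against 81.2%), and 37 were lower at all 3 times. The 38 REs lay near 19 genes, with 9 near ADAMTSL1 and 5 each near ADAMTS12 and ADAMTS17.

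ADAMTSL1 -205.5 kb was at 9.74 and 12.6 CPM in replicates R4 and R5 with vehicle, at 0.933 and 1.76 CPM after 3 h and at 0.605 and 0.737 CPM after 24 h. Both treated samples lay far below both vehicle samples at each time (log2 changes -3.12 with SE 0.18 and -4.11 with SE 0.20, adjusted p 1.11e-09 and 5.02e-11). ADAMTS19 -37.1 kb was at 2.38 and 6.32 CPM with vehicle, 0.555 and 0.940 CPM at 3 h and 0.822 and 1.11 CPM at 24 h, again with both treated samples below both vehicle samples (log2 change at 3 h -2.55, SE 0.25, adjusted p 7.42e-07). MMP2 -2.3 kb was at 37.1 and 15.9 CPM with vehicle, 23.1 and 10.9 CPM at 3 h (-0.69, SE 0.12, adjusted p 4.73e-04) and 11.5 and 7.65 CPM at 24 h (-1.45, SE 0.12, adjusted p 6.04e-08). At 3 h its vehicle and treated samples overlapped, and the call rests on the change within each replicate.

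None of the 57 REs that rose at 48 h was called higher at 3 h, while 17 of them (29.8%) were at 24 h; over all REs 251 of the 15415 that rose at 48 h were higher at 3 h and 26.1% were at 24 h. The 6 REs that rose at 3 h lay near ADAMTS13, ADAMTS14, ADAMTS2 and ADAMTS6. None of the 6 was called at 24 h. Of the 1378 REs that rose at 3 h in the whole table, 29.8% were higher at 24 h and 1.31% lower. At 48 h 3 of the 6 were lower, as were 22.2% of the 1378. ADAMTS14 +9.0 kb was at 7.06 and 4.91 CPM in R4 and R5 with vehicle, 13.2 and 6.65 CPM at 3 h (0.62, SE 0.14, adjusted p 0.00816) and 6.14 and 4.46 CPM at 24 h, while its log2 change at 48 h was -0.46 (adjusted p 0.00383). ADAMTS13 +36.9 kb was at 0.63 at 3 h (adjusted p 0.0201) and -0.58 at 48 h (adjusted p 0.00344), and ADAMTS2 +74.3 kb at 0.46 (adjusted p 0.0276) and -0.41 (adjusted p 0.00148). A difference from WT at 3 h was not called for these 3 REs (adjusted p 0.142, 0.458 and 0.346), and DESeq2 called 1 of the 614 REs higher at 3 h.

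**Figure D3:**
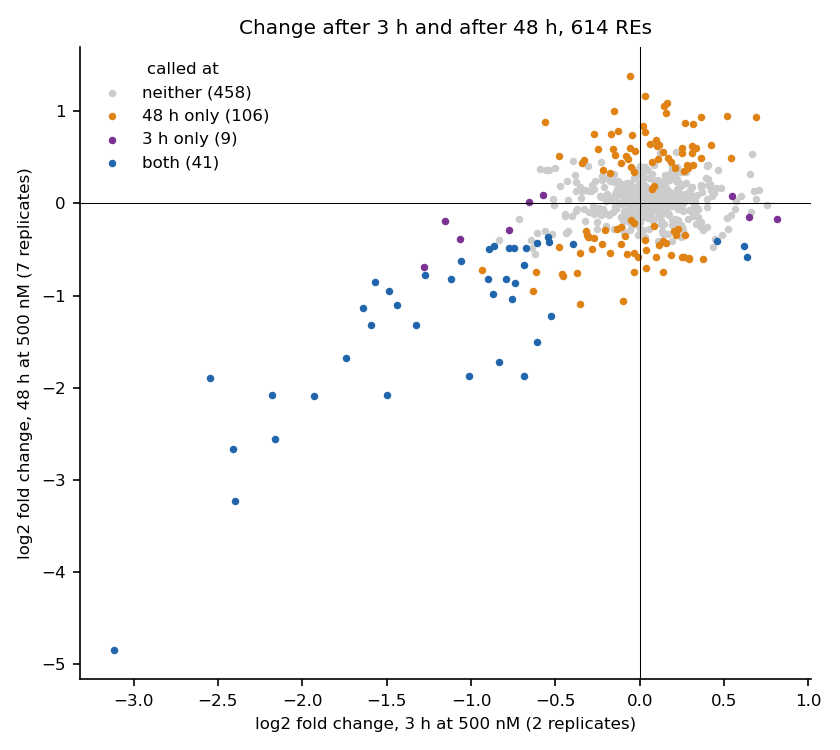
Log2 fold change after 3 h at 500 nM dTAGV-1 (x axis, 2 replicates) against that after 48 h (y axis, 7 replicates) for the 614 REs, coloured by the comparisons in which they passed the edgeR test. Of the REs called at both times 38 lie at the lower left and 3, higher at 3 h and lower at 48 h, at the lower right; none lies at the upper right.

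Split by timing, the 38 REs lower at both 3 h and 48 h had a median ED50 of 29.1% (28.0 to 30.2% over fits with a replicate left out), and the 52 that fell at 48 h without a call at 3 h had 14.4% (13.4 to 15.7%). The medians over the whole table were 29.4% and 12.4%. Fitted on log2 CPM, the medians of the 38 and the 52 were 23.3% and 12.9%. The 57 REs that rose had a median of 14.03% (11.5 to 15.9%), against 16.3%. Median log2 changes at 500 nM were -1.01 in the first class and -0.48 in the second, and at 1.6 nM they were -0.17 and -0.04.

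**Figure D4:**
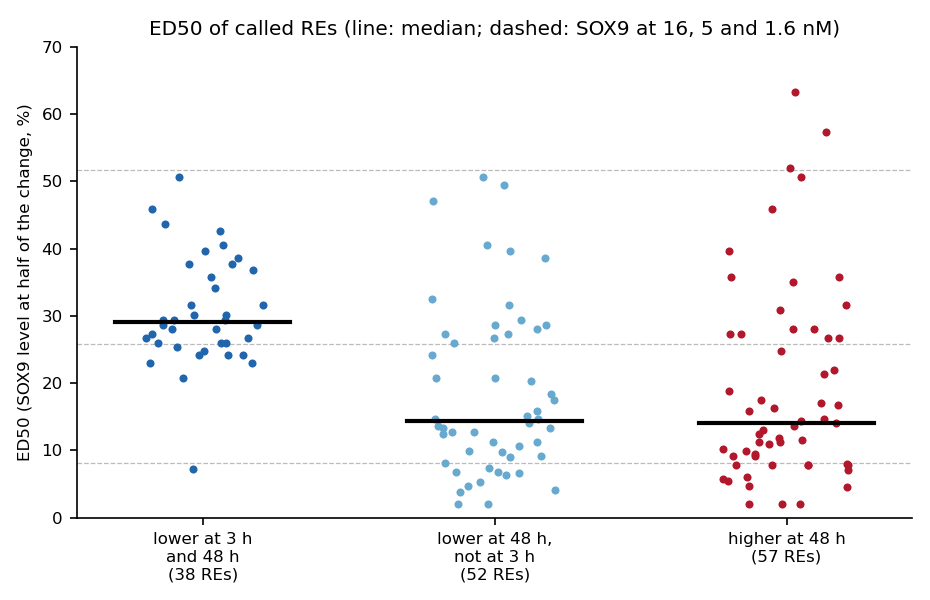
ED50 in % of SOX9 (y axis) of the called REs in 3 classes (x axis), each point an RE and each black line the median, with dashed lines at the SOX9 levels of 16, 5 and 1.6 nM. The medians are 29.1% for REs lower at 3 h and 48 h, 14.4% for those lower at 48 h and not at 3 h, and 14.03% for those that rose.

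WT cells showed what the compound does without a tagged protein. After 48 h at 500 nM 4 of the 614 REs fell and none rose in WT CNCCs (2 against 2), against 0.301% of all REs called in either direction. DESeq2 called none, as did the fits with either WT replicate left out, and RLE size factors gave 4 lower and 1 higher. ADAMTS10 -29.3 kb, in an intron of NFILZ, was at 9.60 and 7.05 CPM in WT replicates R8 and RSh without and at 7.13 and 4.50 CPM with dTAGV-1 (-0.54, SE 0.11, adjusted p 0.00339), and it also fell in SOX9-tagged cells (-1.06, SE 0.11, adjusted p 4.84e-08). ADAMTS17 +49.0 kb fell in WT (-0.43, adjusted p 0.0282) and in SOX9-tagged cells (-0.54, adjusted p 0.00234). ADAMTS15 +29.7 kb and ADAMTS2 +69.3 kb fell in WT (-0.34 and -0.66, adjusted p 0.0308 and 0.0390), and did not pass the test in SOX9-tagged cells (adjusted p 0.995 and 0.227). In the time course edgeR and DESeq2 called none of the 614 in WT at 3 h or 24 h (0.0% of all REs by edgeR at each time). An unadjusted edgeR p under 0.05 was found in 15 and 13 of them, against 3696 and 4645 of all 151457 REs.

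The difference between genotypes was tested directly. At 48 h 27 of the 614 REs were lower and 13 higher in SOX9-tagged than in WT cells in their response to 500 nM, against 5.39% and 1.65% of all REs. The 27 were all among the 90 that fell in SOX9-tagged cells, and 12 of the 13 were among the 57 that rose. The remaining RE was ADAMTS2 +69.3 kb, which fell in WT. Such overlap was general: over all REs it held for 8156 of 8167 lower and 2457 of 2506 higher calls. Both tests share the SOX9-tagged samples. With the replicate as a block the count was 62, with 36 lower and 26 higher, against 10.9% of all REs. Without WT replicate R8 or RSh, which leaves a lone WT sample per arm, fewer REs were called. Most higher calls were lost in either fit, and all 13, those at the largest increases included, without WT replicate R8. Over all REs the share called, and that of higher calls, dropped as well. All 10 REs with the largest decreases differed between genotypes, with adjusted p from 1.45e-11 at ADAMTSL1 -205.5 kb to 8.60e-04 at ADAMTS20 +32.7 kb. These 10, and the 6 largest increases below, were picked by their change in the same SOX9-tagged samples that this test uses. The choice therefore favoured a difference. In WT that ADAMTSL1 RE was at 10.4 and 9.53 CPM without and at 10.8 and 11.4 CPM with dTAGV-1. Of the 6 REs with the largest increases 5 differed, and MMP13 -40.7 kb did not pass the test (adjusted p 0.0548). Nor did ADAMTS10 -29.3 kb (adjusted p 0.172). At 3 h the response of 27 REs was lower, and that of 1 higher, than in WT (5.14% and 0.0726% of all REs), and at 24 h 42 and 2 (6.27% and 0.451%). Fewer were called at 3 h without S9CC13_R4 or WT replicate R5, and at 24 h without S9CC13_R4 or WT replicate R4. The share over all REs dropped in these fits too, which leave a lone sample per arm in 1 genotype.

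**Figure D5:**
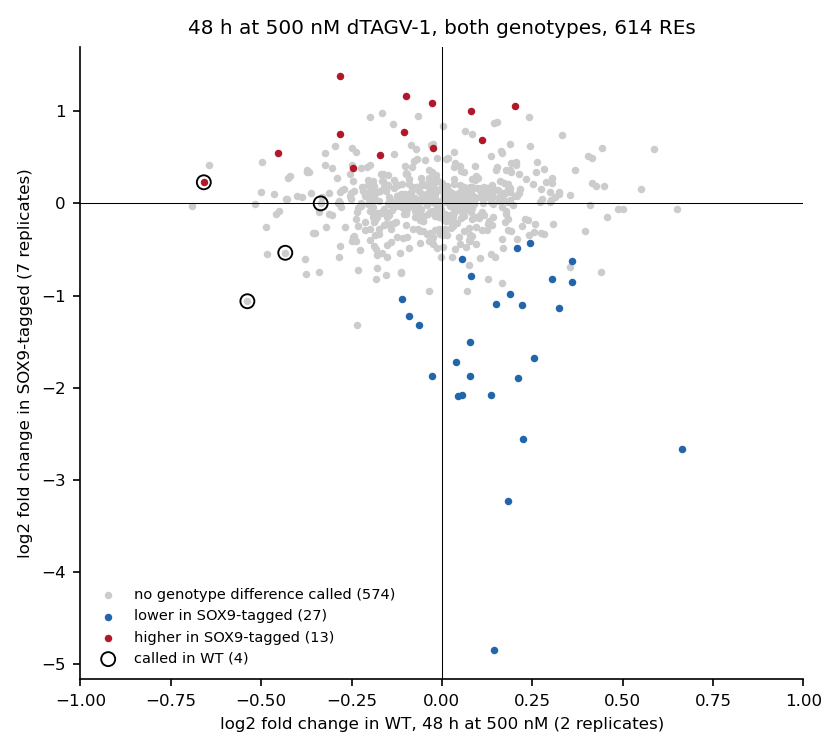
Log2 fold change of the 614 REs after 48 h at 500 nM dTAGV-1 in WT (x axis, 2 replicates) and SOX9-tagged CNCCs (y axis, 7 replicates); blue and red points differed between genotypes by edgeR at adjusted p under 0.05, and circles mark the 4 REs that passed the test in WT. The lowest blue point, the ADAMTSL1 RE, is at -4.85 on the y axis and 0.14 on the x axis.

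Short motifs were searched on both strands of the 300-base windows; a match describes letters and is no binding site. A SOX core (AACAAT or ACAAAG) was present in 21 of the 38 REs lower at 3 h and 48 h (55.3%, exact 95% binomial interval 38.3 to 71.4%) and in 105 of the 467 that were not called (22.5%, 18.8 to 26.5%); the intervals cover counting error only. The shares of these classes in the whole table were 59.7% and 27.7%, and 30.2% of all REs held a core. REs that fell at 48 h without a call at 3 h held a core in 16 of 52 (30.8%, 18.7 to 45.1%), and those that rose in 18 of 57 (31.6%, 19.9 to 45.2%). Searching the whole RE raised the first share to 71.1%, against 76.5% for that class in the whole table. The facing pair, whose arms can overlap an AACAAT or ACAAAG core, was found in 5 of the 614 REs (0.814%, against 0.511% of all). ADAMTSL1 -32.6 kb fell at 500 nM (-0.78, SE 0.22, adjusted p 0.0100) and at 3 h (-1.27, adjusted p 0.00134), with an ED50 of 50.7% (42.6 to 61.7%). ADAMTS20 +31.5 kb fell at 500 nM (-0.76, SE 0.21, adjusted p 0.00926). In both of these REs replicate S9CC13_R13 went up at 500 nM (0.13 and 0.53 on the log2 scale), and the other replicates went down. ADAMTS14 -7.5 kb, MMP16 +37.3 kb and MMP16 +93.6 kb were not called at 500 nM (-0.09, 0.32 and -0.19, adjusted p 0.663, 0.279 and 0.531).

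The AP-1 motif TGANTCA was present in 16 of the 57 REs that rose (28.1%, exact 95% binomial interval 17.0 to 41.5%), in 47 of the 467 not called (10.1%, 7.49 to 13.2%) and in 9.77% of all REs; among all REs that rose it was in 19.0%. The RUNX motif ACCACA was in 14 of the 57 (24.6%, against 19.6% of all REs that rose), and the TFAP2 motif GCCNNNGGC in 145 of the 614 (23.6%, against 18.3% of all REs). MMP13 -40.7 kb and MMP16 +209.7 kb, among the 6 largest increases, each held the AP-1 motif and the other 4 did not.

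REs of other genes of extracellular proteolysis were counted in the same way. For family genes outside the 37, such as MMP1, MMP7 and THSD4, 13 of 147 REs fell and 14 rose at 500 nM. For the ADAM proteases and the enzymes that activate matrix proteases or procollagens 33 of 253 fell and 28 rose, for the plasminogen system 11 of 93 and 6, for cathepsins and their inhibitors 7 of 58 and 5, and for the matrix substrates 23 of 185 and 22. Together these lists had 736 REs, of which 11.8% fell and 10.2% rose, against 13.9% and 10.2% of all REs. Among the substrates, aggrecan (ACAN) had 3 of 17 REs lower and 3 higher, with the lowest log2 change at -3.12, and COMP had 4 of 20 lower and 2 higher.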

How the data were processed

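The authors trimmed paired ATAC-seq reads, aligned them to hg38 with Bowtie2 2.4.1, handled them with SAMtools 1.10 and called peaks with MACS2 2.2.7.1, per the labels and the study's methods; summits were extended, merged across samples and counted. The deposited table holds raw read counts per RE, with no normalization, for 151457 REs in 58 samples (22905782 to 81040023 counts each, TMM factors 0.935 to 1.11). Groups follow the sample labels.

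Counts were tested over all REs with the edgeR 4.0.16 quasi-likelihood F test in R 4.3.3 (TMM, trended dispersion, no filter on low counts, differentiation batch as covariate, Benjamini-Hochberg adjustment, threshold 0.05), and the rows of the 614 REs were read from it. Genotype differences were treatment-by-genotype terms. CPM are TMM-normalised; per-replicate log2 changes use a prior count of 0.5. The fits were tested on simulated data with known changes. The closest pair of samples within a group had a reduced chi-square of 2.60, above sampling noise, and all samples were kept as separate. Alternatives were DESeq2 1.42.0, RLE size factors, a minimum count of 10, a replicate block or none, leaving out each replicate, a 25 kb window, and REs nearest to the start of a protein-coding gene of the list.

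Samples with the same replicate name share clone and differentiation batch in the labels, and their deviations from the group means at 0 and 500 nM moved together (mean r 0.556, lowest 0.406, against -0.0921 between different replicates), so replicates pair the samples.

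Named REs were the 10 largest decreases and 6 largest increases at 500 nM past the threshold and in the same direction in 7 of 7 replicates, called promoter REs (within 1 kb of the gene's start, the one with the most counts), up to 5 called at 1.6 nM (none were), up to 4 higher at 3 h, up to 5 called in WT, and up to 6 with a facing SOX pair; others are marked as picked after their values were seen. Sequences were printed for some of the largest decreases and facing pairs that touch no exon, and for 1 increase, picked with their values and motifs known. The genes, lists and rules were chosen with earlier results of these data known. Python 3.11.15, pandas 2.3.3 and scipy 1.17.1 were used for the Hill fits (ED50 searched from 0.5 to 300%) and the motif search. Some of the cell type markers examined are not reported here.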

Additional observations from a re-analysis of the deposited data

Results flagged for a closer look

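In 3 of the 33 named REs, 1 of the 7 replicates stood apart from the others in its log2 change at 500 nM by Dixon's test at the 95% level; chance flags about 1 in 20 groups. At ADAMTS19 -17.8 kb, which rose, replicate S9CC13_R10 had the smallest increase, 0.41 on the log2 scale. At ADAMTS14 -7.5 kb, which was not called, replicate S9CC13_R13 was at -0.77. At MMP16 +93.6 kb, also not called, replicate S9CC13_R14, whose 0 and 0.5 nM concentration labels are exchanged, was at -1.51.

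The response to 500 nM dTAGV-1 differed between SOX9-tagged and WT CNCCs, by the test of the difference itself (edgeR, adjusted p under 0.05), in 28 of the 614 REs at 3 h, 44 at 24 h and 40 at 48 h. At 3 h ADAMTS14 +42.4 kb was the single RE that was higher in SOX9-tagged cells. No RE was higher there with DESeq2, without the replicate block, or without SOX9-tagged replicate R4 or R5 or WT replicate R5, and 10 were without WT replicate R4.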

How the results depend on the processing

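Without any replicate block or batch term, the number of the 614 REs called dropped from 147 to 61 at 500 nM, from 107 to 24 at 16 nM, from 30 to 11 at 5 nM, from 4 to 0 in WT at 48 h, from 50 to 0 at 3 h and from 95 to 2 at 24 h, and for genotype differences from 28 to 1 at 3 h, from 44 to 2 at 24 h and from 40 to 12 at 48 h. With the replicate as a block the counts were 193 at 500 nM, 177 at 16 nM, 49 at 5 nM, 5 at 1.6 nM and 62 for the genotype difference at 48 h. DESeq2 gave 1 at 1.6 nM, 0 in WT at 48 h, 33 at 3 h and 58 at 24 h. Of all REs it called 0.236%, 0%, 5.63% and 8.77% in these comparisons. It kept 139 of the 147 calls at 500 nM. Without block or batch term the share of all REs called fell too, from 24.1% to 9.96% with 500 nM. With 16 nM it went from 16.2% to 5.1%, and with 5 nM from 5.32% to 1.43%. In SOX9-tagged cells it went from 8.33% to 0% after 3 h and from 14.6% to 0.637% after 24 h. In WT at 48 h it went from 0.301% to 0%. Genotype differences (3, 24 and 48 h) went from 5.21%, 6.72% and 7.05% to 0.452%, 1.05% and 1.64%. The replicate block raised the 500 nM share to 30.7%. Within 25 kb 2 of the 4 WT calls were left. The cause of these shifts was not tested, apart from the smaller set of REs within 25 kb.

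Leaving out 1 replicate gave 120 to 162 calls at 500 nM, 75 to 156 at 16 nM, 22 to 67 at 5 nM, 0 to 4 at 1.6 nM, 0 to 7 at 0.5 nM, 0 to 0 in WT at 48 h, 20 to 32 at 3 h and 30 to 59 at 24 h, and for genotype differences 15 to 31 at 3 h, 20 to 39 at 24 h and 18 to 55 at 48 h. Where this left 1 sample in a group, the spread was pooled with the other genotype. The highest counts of the dose series came without S9CC13_R6 or S9CC47_R6, fits in which batch and replicate coincide. In the dose series the share called over all REs was 20 to 26.4% at 500 nM and 11.6 to 22.1% at 16 nM. At 5, 1.6 and 0.5 nM it was 3.47 to 11.4%, 0 to 0.644% and 0 to 0.659%. Of the 33 named REs, 2 uncalled ones changed sign: over fits with 1 replicate left out ADAMTS15 +29.7 kb ran from -0.0232 (without S9CC13_R10) to 0.0569, also below 0 without S9CC47_R8 (-0.0023), and ADAMTS14 -7.5 kb from -0.1379 to 0.0247 (without S9CC13_R13). In the other fits of the named REs 373 kept direction and side of the threshold, 19 lost the call and 1 gained it. A Hill curve on log2 CPM gave a median ED50 of 17.5%.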
